A study of Mus musculus with 15 samples.

Results

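UCSF033_000421, UCSF033_000422, UCSF033_000424, UCSF033_000425 and UCSF033_000427 are 5 of the 2500 microRNA probes on a custom array used to follow mouse CD4 T cells through activation, rest and restimulation. They were chosen by measured values, with earlier results of these data known: a second response (restimulated minus day 7) smaller than the first (24 h minus naive). Those 2 differences are therefore a description below, with no test, and so is any difference between 2 of the 4 groups they use (naive, 24 h, day 7 and restimulated). The files used here do not pair probe IDs with miRNA names, so the probes have no name, sequence or genome position here, and whether neighbouring IDs share a target is not known.

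CD4 T cells came from spleen and lymph nodes of C57/B6 mice aged 6 to 8 weeks and were taken with CD4-coated magnetic beads. Untreated cells are called naive and gave 2 arrays. Cells stimulated on plate-bound antibodies against CD3 and CD28 for 6, 12, 24, 42 or 65 h gave 2 arrays per time. Cells stimulated for 65 h and then kept off the antibodies in medium with IL-2 until day 7 gave 1 array, and such rested cells put back on the antibodies for 18 h gave 2. No label ties an array to its own animal or culture, or a later array to an earlier one. A p-value here thus sets a difference against array-to-array spread alone, and that spread may be technical. Whether the purified cells were free of other cell types could not be checked without probe names.

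MicroRNAs are short RNAs that guide Argonaute proteins to messenger RNAs with matching sites and lower their stability and translation. A naive T cell is quiescent. Engagement of the T cell receptor, whose signalling chains include CD3, together with the costimulatory receptor CD28 drives it to grow and divide, and its microRNA content is known to be remodelled during that change. IL-2 is the growth factor that keeps activated T cells alive after the stimulus is withdrawn, and cells that have been through one activation are known to answer a second stimulus faster than naive cells.

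The 15 one-colour arrays lay on 2 slides, with 1 array of every group on each slide, apart from day 7, whose only array lay on slide 1. On 14 arrays the median spot brightness was 21 to 23 and 640 to 950 probes were detected above background. The first 42 h array, on slide 2, had a median brightness of 466, 2146 detected probes and 49.9% of its probe spots marked as non-uniform, against at most 0.112% on the others. On that array only 3, 1 and 2 spots of UCSF033_000421, UCSF033_000422 and UCSF033_000427 were usable. It was left out of the fit described here, which leaves 1 array at 42 h, and counts of calls that change with all 15 arrays are given both ways. Precision is set by these few arrays.

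Each probe was printed as 6 or 7 spots, and levels are given as a percent of the array's reference signal. That reference is the 75th percentile of the processed signal over 571 probes detected on all 14 arrays. Within an array the spots of a probe agreed closely: the median coefficient of variation over the 14 arrays was 2.99% for UCSF033_000424, 4.82% for UCSF033_000422, 4.85% for UCSF033_000425, 7.36% for UCSF033_000421 and 7.78% for UCSF033_000427. These figures describe spots of 1 hybridisation and not the spread between samples. All 5 probes passed the filter on dim probes, 4 of them detected on all 14 arrays. The other, UCSF033_000427, was detected on 13 of 14 and lay below the floor of 0.583% on both naive arrays, so its differences and folds against naive cells depend on that floor and are smaller than they would be without it.

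By group mean of these scaled levels, all 5 probes were lowest in naive cells and highest at 42 h. Rested and restimulated cells stood between 12 h and 24 h cells. For UCSF033_000421 the slide 1 and slide 2 arrays read 1.29% and 0.726% in naive cells, 3.40% and 2.08% at 6 h, and 3.63% and 3.90% at 12 h. They read 8.01% and 6.80% at 24 h, 17% on the single 42 h array in the fit, and 12.6% and 11% at 65 h. The day 7 array read 6.71%, and the restimulated arrays read 9.03% on slide 1 and 5.19% on slide 2. The naive arrays lay below every other array, and the restimulated arrays fell on either side of the day 7 array. In such bulk RNA a change in the share of cells that hold a microRNA and a change in its amount per cell cannot be told apart.

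UCSF033_000422 moved almost exactly with UCSF033_000421. Its naive arrays read 1.16% and 0.704%, its 6 h arrays 3.38% and 2.30%, and its 12 h arrays 3.87% and 3.87%, again with slide 1 first. At 24 h it read 8.50% and 6.91%, at 42 h 17.6%, and at 65 h 12.8% and 10.8%. The day 7 array read 6.27% and the restimulated arrays 9.29% and 4.85%, so these too lay on either side of day 7. After each profile was centred on its own mean, the 2 probes differed by at most 0.16 log2 on any of the 14 arrays.

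UCSF033_000427 had the same course near the lower end of the measurable range. It read 0.463% and 0.380% in naive cells, both below the floor, then 1.34% and 1.13% at 6 h and 1.69% and 1.83% at 12 h. At 24 h it read 3.54% and 3.38%, at 42 h 7.43%, and at 65 h 4.88% and 5.14%. At day 7 it read 2.18%, and after restimulation 3.55% on slide 1 and 2.16% on slide 2. The second of these was at the day 7 level.

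The other pair of probes stood about as high at 65 h as at 42 h. UCSF033_000424 read 7.66% and 6.09% in naive cells, 11.9% and 14.8% at 6 h, and 15.2% and 39.7% at 12 h, the widest gap between the slides of any group for this probe. It then read 57.6% and 69.2% at 24 h, 145% at 42 h, and 102% and 169% at 65 h, before 28.2% at day 7 and 70.8% and 45.7% after restimulation. Both restimulated arrays were above the day 7 array, and the slide 1 restimulated array was just above both 24 h arrays.

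UCSF033_000425 was the only probe of the 5 whose 6 h arrays overlapped the naive arrays. For the other 4 both 6 h arrays lay above both naive arrays, as for 12.5% of tested probes, but none passed in limma. UCSF033_000425 read 2.10% and 1.34% in naive cells, 1.82% and 2.22% at 6 h, and 2.56% and 5.24% at 12 h. It read 10.13% and 11.6% at 24 h, 42.4% at 42 h, and 35.4% and 45.2% at 65 h. At day 7 it read 8.42%, and after restimulation 12.3% and 9.40%, close to the 24 h arrays and far below the 65 h arrays.

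The order of the group means was the same for all 5 probes: 42 h, 65 h, 24 h, restimulated, day 7, 12 h, 6 h and naive, from highest to lowest. Neighbours in that order were not all separated. The 24 h and restimulated means differed by less than the residual SD, or their arrays overlapped, for each of the 5 probes. Restimulated and day 7 cells were not separated in the same sense for 4 probes, all but UCSF033_000424. The 42 h and 65 h levels were not separated for UCSF033_000424 and UCSF033_000425. Their gaps were 0.14 and 0.09 log2 against residual SDs of 0.51 and 0.40 log2. The 42 h level is 1 array on slide 1. With the slide as a block, 42 h minus naive was 3.92 log2 for UCSF033_000421 and 4.06 for UCSF033_000422. Their 65 h minus naive was 3.61 and 3.70 log2. Both gaps were then smaller than the residual SDs of 0.40 and 0.39 log2 without the block. For UCSF033_000427, at 3.60 and 3.10 log2, the gap stayed above its residual SD of 0.22 log2. For UCSF033_000424 day 7 and 12 h were not separated either, and for UCSF033_000425 neither were 6 h and naive.

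The first response, 24 h minus naive, was 2.93 log2 for UCSF033_000421 (SE 0.39), 3.09 for UCSF033_000422 (SE 0.38), 3.21 for UCSF033_000424 (SE 0.48), 2.69 for UCSF033_000425 (SE 0.39) and 2.57 for UCSF033_000427 (SE 0.26). In folds these were between 5.94 and 9.25. The second response, restimulated minus day 7, was 0.03, 0.10, 1.01, 0.35 and 0.35 log2 in the same order, with SEs of 0.48, 0.47, 0.58, 0.47 and 0.32. The labelled times differ, at 24 h of first and 18 h of second stimulation. The second response was smaller than the first by 2.20 to 2.99 log2 over the 5 probes, with a median difference of -2.34 log2, beside a median of 0.09 log2 over all 882 tested probes. These values chose the probes and support nothing further.

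Because the day 7 array was on slide 1, the second response within a slide rests on 1 pair of arrays. On slide 1 the first response was 2.27 to 2.91 log2 and the second 0.43 to 1.33 log2. As a percent of the reference, all 5 probes were thus higher after restimulation than at day 7 there. The slide 2 restimulated array, set against the slide 1 day 7 array, differed from it by -0.37 log2 for UCSF033_000421 and for UCSF033_000422. It was -0.01 for UCSF033_000427, 0.16 for UCSF033_000425 and 0.70 for UCSF033_000424. For UCSF033_000421, UCSF033_000422 and UCSF033_000427 the second response thus averages a higher scaled level on slide 1 with another on slide 2. The latter was at or below day 7. These directions depended on the scaling. The reference signal was 818 at day 7, and 509 on slide 1 and 1868 on slide 2 after restimulation. Before scaling UCSF033_000421 read 54.9, 45.9 and 97.0 in the same order. On slide 1 UCSF033_000422 and UCSF033_000425 were then also below day 7, UCSF033_000427 level with it and UCSF033_000424 above it. On slide 2 all 5 were above it. In the authors' value table the first response was 1.33 to 2.64 log2 and the second 0.02 to 0.91 log2.

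Restimulated cells and 24 h cells stood at similar levels, while day 7 cells stood well above naive cells. The restimulated mean minus the 24 h mean was -0.11 log2 for UCSF033_000421, -0.19 for UCSF033_000422, -0.15 for UCSF033_000424, -0.01 for UCSF033_000425 and -0.32 for UCSF033_000427. On slide 1 these differences were 0.0041 log2 for UCSF033_000427 to 0.30 log2 for UCSF033_000424, and on slide 2 they were -0.65 to -0.31 log2, so the sign differed between slides. This difference uses arrays of both responses that chose the probes and is given with no test.

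Against naive cells, all 5 probes rose at 65 h. The log2 differences were 3.61 for UCSF033_000421 (SE 0.39, limma adjusted p = 0.000462), 3.70 for UCSF033_000422 (SE 0.38, adjusted p = 0.000390), 4.26 for UCSF033_000424 (SE 0.48, adjusted p = 0.000481), 4.58 for UCSF033_000425 (SE 0.39, adjusted p = 0.000239) and 3.10 for UCSF033_000427 (SE 0.26, adjusted p = 0.000239), with n = 2 arrays each. The folds ran from 8.59 for UCSF033_000427 to 23.8 for UCSF033_000425. They are relative to a reference signal that itself fell from naive cells to 65 h. It went from 1802 to 577 on slide 1 and from 2668 to 1125 on slide 2, which enlarges the scaled rises. Of all 882 tested probes 21.3% passed in that direction. All tested probes together had a median difference of 0.59 log2, and the 5 probes had a median of 3.70, which is 3.11 above that shift. Both slides showed the rise, with 3.06 to 4.07 log2 on slide 1 and 3.14 to 5.08 on slide 2. With all 15 arrays the 5 calls stood, at adjusted p of 0.00114 to 0.00495, where 8.67% of tested probes passed as higher. Without scaling, 3 of 5 and 2.49% of tested probes passed. UCSF033_000424 and UCSF033_000427 did not pass then, with differences of 2.82 and 2.04 log2. The naive arrays in this and the next comparisons also entered the choice of the probes, through the first response. The deposited value table, whose ranks follow the median spot brightness, gave smaller rises for all 5 probes: 1.23 log2 for UCSF033_000427, 1.81 for UCSF033_000421, 1.86 for UCSF033_000422, 3.29 for UCSF033_000425 and 3.52 for UCSF033_000424.

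All 5 probes also rose from naive cells to 42 h, where 15.8% of tested probes passed in that direction. The second 42 h array, given the spread of the other groups, stood 4.14 log2 above naive for UCSF033_000421, 4.29 for UCSF033_000422, 4.41 for UCSF033_000424, 4.66 for UCSF033_000425 and 3.67 for UCSF033_000427 (limma adjusted p of 0.000780 to 0.00229). The reference signal was 1802 on the slide 1 naive array and 529 on the second 42 h array, which enlarges the scaled rises. All tested probes together had a median difference of 0.30 log2. With both 42 h arrays in the fit that median was 1.17 log2. The 5 then stayed past the threshold, at 3.52 log2 for UCSF033_000424 to 4.94 log2 for UCSF033_000421, beside 18.8% of tested probes. The order of the probes changed with that array: UCSF033_000421, UCSF033_000422 and UCSF033_000427 were higher on the first 42 h array than on the second by 1.48, 1.17 and 1.5 log2, whereas UCSF033_000424 and UCSF033_000425 differed by -1.87 and -1.28 log2. The part of the brightness of that array in these values was not tested. Without scaling 0 of 5 and 0.00% of tested probes passed, with differences of 2.0 to 2.61 log2 in limma and 0.0617 as the lowest adjusted p.

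The first hours gave smaller differences. At 6 h none of the 5 passed in limma and 3 had an unadjusted p under 0.05, in a comparison where 0.113% of tested probes passed as higher. With all 15 arrays none passed in limma either, and 2 had an unadjusted p under 0.05. The differences were 1.46 log2 for UCSF033_000421, 1.63 for UCSF033_000422, 0.96 for UCSF033_000424, 0.27 for UCSF033_000425 and 1.08 for UCSF033_000427. Both 6 h arrays lay above both naive arrays for 4 of the 5, which held for 12.5% of tested probes. With the slide as a block UCSF033_000422 passed at 6 h (adjusted p = 0.0276), as did 0.567% of tested probes. Leaving out either restimulated array kept the difference of UCSF033_000427 at 1.08 log2 and moved its adjusted p. No call is drawn from that. At 12 h UCSF033_000422 (2.10 log2, SE 0.38, adjusted p = 0.0474) and UCSF033_000427 (1.59 log2, SE 0.26, adjusted p = 0.0289) rose, against 0.794% of tested probes. The remaining 3 had differences of 1.96 log2 for UCSF033_000421 (adjusted p = 0.0647), 1.85 for UCSF033_000424 (adjusted p = 0.143) and 1.13 for UCSF033_000425 (adjusted p = 0.213). In the limma fit of all 15 arrays, 0 of 5 and 0.00% of tested probes passed at 12 h, where 4 of 5 had an unadjusted p under 0.05. With the slide as a block, UCSF033_000421 passed as well (adjusted p = 0.0138), which made 3 of 5 against 1.70% of tested probes. Leaving out 1 array in turn changed the 12 h calls. Without either naive array or either 12 h array neither UCSF033_000422 nor UCSF033_000427 passed, at adjusted p of 0.0679 to 0.295, while their differences were 1.74 to 2.46 log2 and 1.53 to 1.65 log2. Without the slide 1 array of 12 h the difference of UCSF033_000424 was 2.54 log2, and no call is drawn from that. Leaving out a 6 h, 24 h or 65 h array kept the differences at 2.10 and 1.59 log2 and moved only the adjusted p, to 0.0665 to 0.0926, so that neither passed. Without either restimulated array 3 passed, UCSF033_000421 with them (adjusted p = 0.0431), beside 2.49% of tested probes. At 12 h the slides differed for UCSF033_000425, at 0.28 log2 on slide 1 and 1.97 on slide 2, and for UCSF033_000424, at 0.98 and 2.71. For UCSF033_000427 the size depends on the floor: its 12 h difference was 2.06 log2 with the floor lowered and 1.02 with it raised.

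Every array of the 12 h, 42 h, 65 h, day 7 and restimulated groups lay above both naive arrays for each of the 5 probes. So did 17.9% of tested probes at 12 h, 51.2% of them at 42 h and 48.2% at 65 h. The shares were 49.9% for the day 7 array and 42.7% for the restimulated arrays. The naive arrays, used in each of these comparisons, entered the choice of the probes. The day 7 and restimulated arrays entered it too, so nothing is read from their counts.

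After rest to day 7 all 5 probes read higher than in naive cells. The day 7 array minus the naive mean was 2.80 log2 for UCSF033_000421 (SE 0.48) and for UCSF033_000422 (SE 0.47), 2.05 for UCSF033_000424 (SE 0.58), 2.33 for UCSF033_000425 (SE 0.47) and 1.90 for UCSF033_000427 (SE 0.32). Day 7 is 1 array, to which the fit gives the spread of the replicated groups. Both groups entered the differences by which the probes were chosen, and a small second and large first response favours a high day 7 and a low naive value, so no test is given. For the record of the fit only, 4 of 5 and 8.05% of tested probes were past the threshold with 14 arrays, 5 of 5 and 14.1% with the slide as a block, and 0 of 5 and 0.439% with all 15 arrays, and nothing is read from these counts. The size depends on the processing. For UCSF033_000427 it was 0.59 log2 in the value table and 0.33 with normexp background correction, and without scaling the 5 differences were 0.63 to 1.38 log2.

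From 65 h to day 7 all 5 differences were negative, of unequal size, and none passed. The differences were -0.81 log2 for UCSF033_000421, -0.91 for UCSF033_000422, -1.20 for UCSF033_000427, -2.22 for UCSF033_000424 and -2.25 for UCSF033_000425 (limma adjusted p of 0.0850 to 0.516; 3 of 5 with an unadjusted p under 0.05; 0.454% of tested probes passed as lower). With all 15 arrays 0 of 5 and 0.00% passed in limma, and 2 had an unadjusted p under 0.05. On slide 1, which holds the day 7 array, UCSF033_000421 went from 12.6% to 6.71% of the reference and UCSF033_000425 from 35.4% to 8.42%. All 5 had their day 7 array below both 65 h arrays, as had 34.9% of tested probes. Day 7 is 1 array that also entered the choice of the probes. Leaving out an array of another group, either 12 h or either restimulated one, kept the differences as they were and put 1 adjusted p below the threshold (UCSF033_000425 at 0.0442, UCSF033_000427 at 0.0390), and no call is drawn from that.

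Restimulated cells also read higher than naive cells for all 5 probes. The log2 differences were 2.83 for UCSF033_000421 (SE 0.39), 2.90 for UCSF033_000422 (SE 0.38), 3.06 for UCSF033_000424 (SE 0.48), 2.68 for UCSF033_000425 (SE 0.39) and 2.25 for UCSF033_000427 (SE 0.26), with n = 2 arrays each, or 4.75-fold to 8.33-fold. Both groups entered the choice of the probes, so these too are a description with no test. In the fit 5 of 5 and 25.9% of tested probes were past the threshold with 14 arrays, and 5 of 5 and 9.66% with all 15, from which nothing is read. The slides gave 2.55 to 3.21 log2 on slide 1 and 1.89 to 2.91 on slide 2, and without scaling the differences were 1.46 to 1.89 log2.

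After 18 h of restimulation the probes read lower than at 65 h. Both restimulated arrays were below both 65 h arrays for each of the 5, as for 15.8% of tested probes. The differences were -0.78 log2 for UCSF033_000421, -0.81 for UCSF033_000422, -0.85 for UCSF033_000427, -1.21 for UCSF033_000424 and -1.89 for UCSF033_000425. None passed in limma, with 3 at an unadjusted p under 0.05 and 1.47% of tested probes called lower. With all 15 arrays 0 of 5 and 0.00% passed in limma, and 1 had an unadjusted p under 0.05. UCSF033_000425 had an adjusted p of 0.0569 with 14 arrays (SE 0.39) and of 0.399 with 15, and it passed with the slide as a block (adjusted p = 0.0441; 3.17% of tested probes). Leaving out either 12 h array kept its difference as it was and moved only its adjusted p. Without the slide 1 restimulated array the difference of UCSF033_000427 was -1.21 log2. No call is drawn from these fits. The restimulated arrays also entered the choice of the probes.

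The 5 probes followed each other closely, UCSF033_000421 and UCSF033_000422 most of all. Over the 14 arrays the 10 pairwise Pearson correlations ran from 0.902 (UCSF033_000422 with UCSF033_000425) to 0.998 (UCSF033_000421 with UCSF033_000422). Within slide 1 (8 arrays) they ran from 0.905 to 0.998 and within slide 2 (6 arrays) from 0.939 to 0.998. The points share arrays, scaling and the activation course itself, so these are descriptions. The slides sorted the probes in another way: in the 6 groups with an array on each slide, UCSF033_000422 was lower on slide 2 in 6 of 6 and UCSF033_000421 in 5, whereas UCSF033_000424 and UCSF033_000425 were higher on slide 2 in 4 of 6. The mean slide 2 minus slide 1 difference was -0.46 log2 for UCSF033_000422, -0.44 for UCSF033_000421, -0.14 for UCSF033_000427, 0.14 for UCSF033_000425 and 0.29 for UCSF033_000424.

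Outside the 5, the probes most like them were the ones just before them in the ID order. The correlation with the mean of the 5 over the 8 group means was 0.997 for UCSF033_000420 and 0.994 for UCSF033_000419, the highest of 873 other probes. The course itself was common, with 83 of those probes (9.51%) at 0.9 or more. UCSF033_000420 read 27.3% and 15.5% of the reference in naive cells, 174% and 154% at 24 h, 99.9% at day 7, and 230% and 109% after restimulation. It was thus higher by 2.99 log2 at 24 h and by 0.66 log2 on restimulation, a pair of values inside the range of the 5. UCSF033_000419 had 2.73 and 0.59 log2 for the same pair.

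The IDs inside and just after the run were less alike by this correlation, which takes no account of the slide. UCSF033_000423 (r = 0.972) had a first response of 2.40 log2 and a second of 1.04, and UCSF033_000426 (r = 0.950) had 3.15 and 1.5. The day 7 array of UCSF033_000426 read 1.67%, against 0.505% and 0.721% in naive cells and 6.56% and 21.6% at 65 h. UCSF033_000426 was higher on slide 2 in 6 of 6 groups, by 1.30 log2 on average. With the slide as a block the second response was 0.69 log2 for UCSF033_000423 and 0.85 for UCSF033_000426. The second minus the first was then -1.71 log2 for UCSF033_000423 and -2.30 for UCSF033_000426, beside -2.76 to -2.15 for the 5. UCSF033_000428 (r = 0.936) was dim, lay below the floor on 5 of 14 arrays, and had 1.01 and 0.20 log2 for the first and second response.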

How the data were processed

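MicroRNA probes were measured in 15 RNA samples of mouse CD4 T cells, from 50 ng of total RNA labelled with Cy3, per the labels. The deposited scanner files hold 1-colour intensity values of 15665 spots, from which the scanner software had taken background and spatial trend. That software was Feature Extraction, version 10.1.1.1 per the file headers and 10.6 per the submitters' processing notes. A value table of 2191 probes, deposited by the authors, is on a log2 scale; no source used here says how it was normalized, so its centring is unknown. It ranked probes as the median spot brightness did (Spearman correlation at least 0.999), except for the first 42 h array (0.459).

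Control spots and flagged outlier spots were left out, and 0 probe spots were saturated. The processed signal was averaged over spots, divided by the array's 75th percentile over 571 probes detected on all 14 arrays of the fit, floored at 0.583% of it (the 5th percentile of detected values) and taken to log2. Detection needed over 50% of a probe's spots well above background. The 882 probes detected on both arrays of some group were tested, using limma 3.58.1 (lmFit and eBayes, R 4.3.3). Group was the sole term, with 6 residual degrees of freedom. Benjamini-Hochberg adjustment ran over all tested probes within a comparison, at 0.05. The procedure was tested on simulated data. The first 42 h array was left out for its brightness and spot flags, and all 15 arrays are an alternative. Slides were read from the file headers. Alternatives changed the scaling, background, floor, filter, spot summary, block and arrays.

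The members, the comparisons and the alternatives were chosen with earlier results of these data known. Named probes are the 5 members, the IDs between and just beside them, and the 2 other probes with the highest correlation to their mean over the group means. Lists of miRNAs and cell type markers were not used, since the probes are unnamed.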

Additional observations from a re-analysis of the deposited data

Results flagged for a closer look

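The first 42 h array enters no comparison of the fit of 14 arrays, and on it each of the 5 probes was above both naive arrays. So were 69.0% of the 882 tested probes, whose median there was 1.95 log2 above the naive mean. Its level minus the naive mean was 5.62 log2 for UCSF033_000421, 5.45 for UCSF033_000422, 2.53 for UCSF033_000424, 3.38 for UCSF033_000425 and 5.18 for UCSF033_000427. These values rest on 3, 1, 7, 5 and 2 usable spots in the same order, and the second 42 h array gave 4.14, 4.29, 4.41, 4.66 and 3.67 log2.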

How the results depend on the processing

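Over the 5 probes, 8 fitted comparisons and 27 alternatives, 1072 values were computed. Of these 975 were unchanged in sign and call, 66 lost a call, 30 gained one and 1 changed sign. The value that changed sign was UCSF033_000425 at 6 h, not called, at -0.061 log2 without the second naive array. The tally includes day 7 and restimulated against naive, whose groups chose the probes, so it does not measure robustness. At 12 h, where 2 of 5 passed, 0 passed with all 15 arrays, also with the slide as a block, an alternative chosen after seeing the data. Likewise 0 passed without scaling, with normexp on the median signal, with the value table, without a filter and with the replicate number as a block. Of all tested probes 0.00% passed as higher in these settings, except 0.144% with the value table and 0.0400% without a filter. With a raised floor and with the median over spots 1 of 5 passed, beside 0.567% of tested probes in each. With only probes detected on all arrays 1 of 4 passed, beside 1.23% of tested probes. UCSF033_000427 is not in that fit. Without scaling 0 of 5 passed at 42 h, 3 at 65 h, 0 at day 7 against naive and 0 after restimulation against naive, and with all 15 arrays 0 passed at day 7, with or without the slide as a block. The share of all tested probes that passed as higher without scaling was 0.00% at 42 h, 2.49% at 65 h, 1.02% at day 7 and 2.72% after restimulation. Counts for day 7 and restimulated against naive compare groups that chose the probes, and nothing is read from them. The slide as a block gave 1 call at 6 h, beside 0.567% of tested probes. Day 7 minus 65 h gave 1 call with normexp and with the value table, beside 0.567% and 0.866% of tested probes called lower. Restimulated minus 65 h gave 1 call with quantile normalization, normexp, the value table, only probes detected on all arrays, and the slide as a block. The shares of tested probes called lower were 1.70%, 1.13%, 1.01%, 2.28% and 3.17% in the same order. The median first response was 1.86 log2 without scaling, 1.21 with normexp and 1.92 in the value table, and the second minus the first was -1.26, -1.20 and -1.82 log2 in the same order. All 139 values of that last difference over probes and settings were below 0, a direction their selection fixes. With 1 array left out in turn, calls changed at 6 h, at 12 h, for day 7 minus naive, and for day 7 and restimulated cells minus 65 h. Such a fit leaves 1 array in a group, so no count of calls is given here. Over the same fits the median first response was 2.57 to 3.35 log2, the second -0.01 to 0.57 and their difference -2.67 to -2.15. The replicate number is only the accession order, so its block pairs nothing, and the causes of these changes were not tested. The median of all tested probes at 65 h moved from 0.59 log2 to -0.02 with the percentile over all probes and to -0.69 without scaling. Day 7 is 1 array, and UCSF033_000427 lies near background in naive cells.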
